A study of Mus musculus with 6 samples.

Results

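Collagen chains, and the enzymes and chaperone that fold and crosslink them, were followed in axitinib-resistant 4T1 mouse mammary carcinoma cells. The group holds every gene whose symbol is Col, a number, a and a number, apart from Col17a1, together with the lysyl oxidases Lox and Loxl1 to Loxl4, the lysyl hydroxylases Plod1 to Plod3, the collagen chaperone gene Serpinh1 and the transglutaminase gene Tgm2. These are 53 of the 53465 genes in the count table, 43 collagen chains and 10 enzymes or chaperones.

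All 6 libraries came from resistant 4T1 cells, which had been derived from lesions of mice given 100 mg/kg/day axitinib, a VEGF receptor kinase inhibitor, and then kept in culture with 0.5 µM of the drug. C12FDG, a fluorogenic β-galactosidase substrate used to read senescence-associated β-galactosidase, divided them into SM positive cells of high signal (3 libraries) and SM negative cells of low signal (3 libraries). Both fractions therefore shared the resistant origin and the drug, and the labels name no untreated or parental cells among these libraries. Libraries numbered 1, 2 and 3 in each fraction were compared as pairs. The labels do not say what a number marks, nor that replicates came from separate cultures, so the spread behind each p-value is that of these libraries and may be technical. Total counts were 18733801 to 26533528 per library. These are bulk libraries, in which a change in the share of cells that express a gene and a change in RNA per cell cannot be told apart.

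Collagens are proteins of 3 chains wound into a triple helix. Chains of one type join as a homotrimer or mix with partner chains, and the classes differ in the structures they build: striated fibrils, the basement membrane network, beaded filaments, or molecules that sit on the surface of fibrils. In the endoplasmic reticulum, prolyl and lysyl hydroxylases modify the chains and the chaperone HSP47 (Serpinh1) holds the helix. Outside the cell, lysyl oxidases join the chains through lysine and hydroxylysine residues, and tissue transglutaminase (Tgm2) joins glutamine to lysine. In carcinomas most fibrillar collagen is made by stromal fibroblasts, while epithelial cells contribute mainly basement membrane collagens.

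In SM positive cells 12 of the 53 members were higher and 1 was lower in the paired comparison (edgeR quasi-likelihood test, adjusted p under 0.05 over all genes). The members that rose were Loxl3, Col5a1, Col12a1, Col4a6, Col6a1, Tgm2, Col4a5, Plod2, Col16a1, Col4a2, Col4a1 and Col8a1. Col7a1, the anchoring fibril collagen, fell. The rises ran from 1.11-fold for Col8a1 to 1.72-fold for Loxl3, and no member that passed the test reached a 2-fold change. The filter on low counts left 27 members to test, so 26 have no test. Across all 14038 genes tested, 8.52% were higher and 5.60% lower in the same fit. The median log2 change was 0.23 over the 27 tested members and -0.001 over all genes tested.

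Leaving the pairing out changed this count. Without the replicate number as a block, 5 members rose, Loxl3, Tgm2, Col6a1, Col4a5 and Col5a1, and none fell, against 1.14% higher and 0.214% lower among all genes. At an unadjusted p under 0.05 that fit had 12 members higher and 1 lower, and 8.04% higher and 5.58% lower among all genes tested. These 12 were not the same set as in the paired fit. Col6a2 and Col8a2 came in, and Col4a1 and Col8a1 dropped out. Without pair 1 the paired fit had 6 members higher and 1 lower. Without pair 2 or pair 3 it had 9 higher and 1 lower each. Over all genes tested, 506 of 14017 were higher and 199 lower without pair 1. Those counts were 1029 and 764 of 14247 without pair 2, and 637 and 249 of 14231 without pair 3. With all pairs they were 1196 and 786 of 14038. Within pairs, 16 of the 27 tested members were higher in SM positive cells in all 3, against 23.9% of all genes tested. Among the 27, 12 were higher in every SM positive library than in any SM negative library, and 1 was lower. This set of 12 also differed from the paired calls: it held Col6a2, Col8a2 and Col18a1, and lacked Col4a1, Col8a1 and Plod2. Over all genes tested those shares were 10.4% and 9.47%.

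The cells carried most of the epithelial markers examined. Summed CPM (counts scaled to library size with TMM factors) of 8 epithelial genes was 4484 to 4698 in SM negative and 4204 to 4519 in SM positive libraries, with Krt7 and Krt18 the highest. Krt19 and Cldn7 were scarce, at 0.887 to 2.23 and 1.23 to 1.67 CPM over all libraries. Of these 8, Krt19, Epcam and Cldn4 were lower in SM positive cells in the paired fit (adjusted p = 0.0263, 0.0147 and 0.00727). None of the 8 was called higher. Over all genes tested 5.60% were lower and 8.52% higher. These 3 were not called without the block (0.16, 0.266 and 0.326). The log2 change was negative for 6 of the 8, with a median of -0.095, against -0.001 over all genes tested. The 9 fibroblast markers summed to 275.2 to 308.9 CPM in SM negative and 302.6 to 322.9 in SM positive libraries. Postn, which encodes the matrix protein periostin, held nearly all of that sum, at 270.9 to 305.3 and 297.8 to 316 CPM. Pdgfra was the next highest, at 3.32 to 3.82 and 4.25 to 6.33 CPM, and it rose 1.41-fold (adjusted p = 0.0423 paired, 0.246 without the block). Lum, Thy1 and Dpt of the same list had no count in any library, and Dcn stayed at or below 0.15 CPM. Pdgfrb, not tested, was at 0.0474 to 0.119 CPM in SM negative and 0.28 to 0.413 CPM in SM positive libraries. These are only 3, 2 and 1 counts against 11, 6 and 6. Fap, also not tested, had 5, 5 and 2 counts in SM negative and 5, 2 and 2 in SM positive libraries. Pericyte and smooth muscle markers summed to at most 0.811 CPM and endothelial markers to at most 0.694 CPM. Their highest members were Cspg4 and Acta2, and Pecam1 and Vwf. Of the adipocyte markers Plin1 had 1 count in 1 library, and Adipoq and Lep had none. Leukocyte markers summed to 6.17 to 8.44 CPM in SM negative and 4.72 to 6.23 CPM in SM positive libraries. Almost all of that was the lysosomal glycoprotein gene Cd68, followed by Csf1r, while Ptprc was at or near 0. Cd68 itself was lower in SM positive cells (adjusted p = 0.0148 paired, 0.233 without the block). Cartilage and bone markers summed to 76.9 to 83.0 and 83.1 to 94.6 CPM, from the transcription factor genes Sox9 and Runx2, with Acan at 0. Sox9 rose by 0.14 on the log2 scale (adjusted p = 0.0446 paired, 0.617 without the block). The part of these marker genes in the collagen results was not tested.

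Collagen expression in these cells was concentrated in a few non-fibrillar chains. Scaled to exon length, Col18a1 stood at 62.3 CPM per kb over the 6 libraries, Col8a1 at 55.5, Col4a1 at 44.2, Col4a2 at 35.6 and Col16a1 at 20.5. Col18a1 encodes the chain whose C-terminal fragment is endostatin, an inhibitor of angiogenesis, and Col8a1 a short-chain network collagen of vessels and the cornea. With the longest transcript in place of all exons the same 5 chains led, with Col8a1 ahead of Col18a1. Counted without length, Col18a1, Col8a1, Col4a1 and Col4a2 made up 79.0% of the summed CPM of all 43 chains. The classical fibril chains were near the bottom: Col1a1 had 0.0999 and Col1a2 0.0359 CPM per kb, and Col3a1 had no count in any library. Among the enzymes and the chaperone, the chaperone gene Serpinh1 was highest at 194.5 CPM per kb, then Loxl4 at 66.7 and Tgm2 at 32.8.

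**Figure D1:**
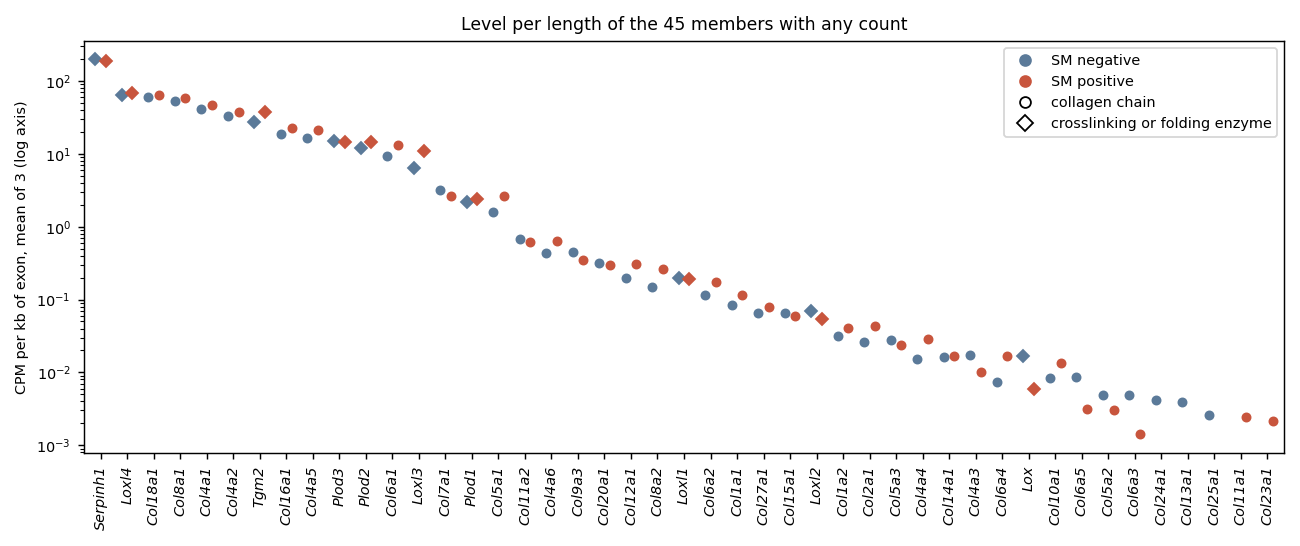
Level of the 45 members with at least 1 count, as CPM per kb of merged exon (log axis), mean of 3 libraries in each fraction; circles are collagen chains and diamonds are enzymes or the chaperone, and a fraction at 0 has no symbol. Serpinh1, at 194.5 CPM per kb, is followed by Loxl4 and a handful of non-fibrillar chains, and Col1a1 lies at 0.0999.

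By mean CPM, 9 members exceeded 100, 7 lay between 10 and 100, 6 between 1 and 10, and 31 were under 1 CPM. Of the last group 8 had no count in any library: Col3a1, Col6a6, Col9a1, Col9a2, Col19a1, Col22a1, Col26a1 and Col28a1. A count of 0 allows up to 3 counts, which is 0.113 to 0.160 CPM depending on the library, and this limit covers counting error only. The other 18 members left out by the filter had 1 to 54 counts summed over the 6 libraries. They included Lox, the founding lysyl oxidase, with 0 to 2 counts per library, and Loxl2, with 4 to 11.

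Summed over the 43 chains, collagen transcripts were 1739, 1692 and 1699 CPM in SM negative libraries 1, 2 and 3, and 2075, 1873 and 1842 CPM in SM positive libraries 1, 2 and 3. Every SM positive sum lay above every SM negative sum, and within pairs the ratio was 1.19, 1.11 and 1.08. Basement membrane type IV chains gave 648.8, 655.8 and 635.8 CPM in SM negative and 802.8, 736.6 and 695.1 CPM in SM positive libraries. Fibrillar chains, mostly Col5a1, summed to 18.6 to 21.5 CPM in SM negative and 24.6 to 33.2 CPM in SM positive libraries, a ratio of 1.44 and the largest among collagen classes above 1 CPM in every library. The enzymes and chaperone together gave 1104, 1046 and 1031 CPM in SM negative and 1242, 1104 and 1085 CPM in SM positive libraries, which overlapped. SM positive library 1 held the highest sum in both comparisons. No test was made on these sums.

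**Figure D2:**
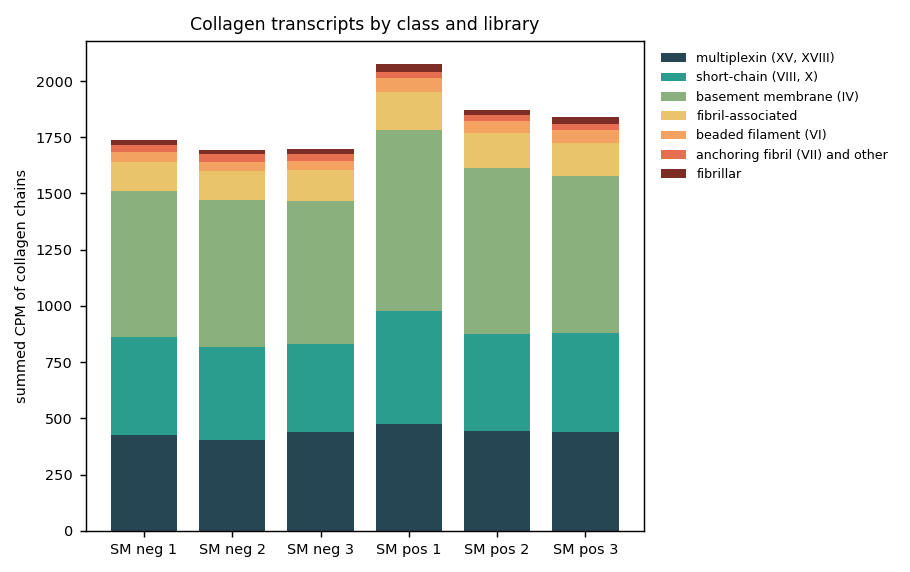
Summed CPM of the 43 collagen chains in each of the 6 libraries, stacked by structural class. The SM positive bars reach 1842 to 2075 CPM and the SM negative bars 1692 to 1739 CPM, with types IV, VIII and XVIII making up most of each bar.

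Promoter sequences were at hand for 9 of the 13 members that passed the paired test (RefSeq, GRCm38.p6, 250 bases before to 50 after the start). All 9 were collagen chains, and none was at hand for Loxl3, Tgm2, Plod2 or Col12a1. Shown are 3 chains that rose with and without the block, the Col4a1 side of the start that Col4a1 and Col4a2 share, and Col7a1, the chain that fell. All are written 5′ to 3′ on the gene's strand. Capitals mark matches on either strand to the GC box (GGGCGG), the CCAAT box (CCAAT), an AP-1 site (TGANTCA) or a SMAD element (CAGAC).
Col5a1, chr2:27886175-27886474, plus strand: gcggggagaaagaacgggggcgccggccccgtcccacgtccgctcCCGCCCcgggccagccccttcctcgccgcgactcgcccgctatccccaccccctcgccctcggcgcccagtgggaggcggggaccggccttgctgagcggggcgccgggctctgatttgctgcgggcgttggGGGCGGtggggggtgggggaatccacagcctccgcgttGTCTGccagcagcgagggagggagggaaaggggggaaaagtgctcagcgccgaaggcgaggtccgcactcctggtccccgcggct
Col6a1, chr10:76725995-76726294, minus strand: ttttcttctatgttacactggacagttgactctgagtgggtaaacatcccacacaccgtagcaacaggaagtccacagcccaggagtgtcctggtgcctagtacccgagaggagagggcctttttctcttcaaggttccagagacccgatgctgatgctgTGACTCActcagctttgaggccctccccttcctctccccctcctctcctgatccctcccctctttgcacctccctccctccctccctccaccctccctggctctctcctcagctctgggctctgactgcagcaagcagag
Col4a5, chrX:141475169-141475468, plus strand: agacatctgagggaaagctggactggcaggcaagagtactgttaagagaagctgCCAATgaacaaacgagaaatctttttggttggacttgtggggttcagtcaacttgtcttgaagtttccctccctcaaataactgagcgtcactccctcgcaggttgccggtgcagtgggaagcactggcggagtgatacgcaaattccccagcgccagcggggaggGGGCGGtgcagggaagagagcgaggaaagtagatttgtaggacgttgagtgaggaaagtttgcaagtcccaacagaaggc
Col4a1, chr8:11312777-11313076, minus strand: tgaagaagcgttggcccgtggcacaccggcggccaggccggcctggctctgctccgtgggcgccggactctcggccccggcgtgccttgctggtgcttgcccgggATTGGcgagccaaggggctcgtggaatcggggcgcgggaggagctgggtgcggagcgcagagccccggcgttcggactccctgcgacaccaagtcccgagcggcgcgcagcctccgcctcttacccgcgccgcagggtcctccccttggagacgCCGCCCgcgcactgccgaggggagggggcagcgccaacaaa
Col7a1, chr9:108953336-108953635, plus strand: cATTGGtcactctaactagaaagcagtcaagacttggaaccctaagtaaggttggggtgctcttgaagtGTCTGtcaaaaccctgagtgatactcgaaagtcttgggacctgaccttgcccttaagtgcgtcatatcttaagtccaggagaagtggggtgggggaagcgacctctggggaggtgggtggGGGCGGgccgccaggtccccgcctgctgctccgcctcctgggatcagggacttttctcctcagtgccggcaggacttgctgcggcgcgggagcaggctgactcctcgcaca

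A GC box was present in 8 of the 9 member promoters and in 35.7% of 32851 promoters of the same length. The Col4a1 and Col4a2 windows overlap, and the GC box of Col4a1 is also counted in Col4a2. The exception was Col6a1, which held the only AP-1 match among the 9, against 7.81% of all promoters. CCAAT was found in 5 of 9 (37.4% of all), CAGAC in 4 of 9 (49.6% of all) and a TATA box (TATAAA) in 0 of 9 (13.6% of all). The Col5a1 window was 75% and the Col4a1 window 74.0% G and C, against a median of 52.7% over all promoters, while Col4a5 had 52.7% and Col6a1 57.3%. The Col7a1 window held a GC box, a CCAAT match and a SMAD element.

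Col5a1 was the only fibrillar chain past the test. It encodes the α1 chain of collagen V, which nucleates and limits the width of collagen I fibrils (ENSMUSG00000026837.15, chromosome 2, 27886425 to 28039514, plus strand). Libraries held 14.3, 12.3 and 14 CPM in SM negative 1, 2 and 3, and 26.9, 18.3 and 21.7 CPM in SM positive libraries 1, 2 and 3. The fractions did not overlap, and SM positive library 1 was the highest. The log2 change was 0.73 ± 0.078 (SE; adjusted p = 2.14e-06, n = 3 pairs), with ratios of 1.89, 1.49 and 1.55 in pairs 1, 2 and 3. Without the block the adjusted p was 0.0332. In unblocked fits that left out SM negative 1, 2 or 3 or SM positive 3, it was 0.11, 0.152, 0.121 and 0.104. The noncoding genes 2810430I11Rik and Gm13372, annotated on the opposite strand within Col5a1, stayed at or below 0.263 CPM.

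Partner chains of Col5a1 were scarce. Col5a2, whose product joins that of Col5a1 in the main form of collagen V, had 5 counts over the 6 libraries, and Col5a3 had 23. Col1a1, the main chain of collagen I, was at 0.637, 0.321 and 0.711 CPM in SM negative and 0.75, 0.654 and 0.861 CPM in SM positive libraries (log2 change 0.43 ± 0.347 SE, adjusted p = 0.463). Col1a2, its partner, was at 0.398, 0.534 and 0.237 against 0.488, 0.514 and 0.507 CPM. The collagen I fractions overlapped for both chains, and a difference was not detectable at 88 and 59 counts in all. Col11a2 and Col27a1, the other fibrillar chains tested, were also not called (adjusted p = 0.529 and 0.718). Col11a1, Col24a1 and the cartilage chain Col2a1 had 2, 2 and 43 counts.

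Collagen VI showed the same imbalance between partners. Col6a1 encodes the α1 chain of the beaded filaments that surround many cells (ENSMUSG00000001119.7, chromosome 10, 76708792 to 76726168, minus strand). It stood at 43.5, 41.8 and 37.5 CPM in SM negative and 63.0, 52.2 and 56.3 CPM in SM positive libraries. Every SM positive library exceeded every SM negative one. Its log2 change was 0.48 ± 0.054 (SE; adjusted p = 3.72e-06), with pair ratios of 1.45, 1.25 and 1.5. Without the block the adjusted p was 0.0267, and it rose to 0.0612, 0.104, 0.115, 0.0551 and 0.0784 without SM negative 1, 2 or 3 or SM positive 1 or 3. Col6a2, which lies 85.2 kb from Col6a1 on the same strand and encodes the obligatory partner chain, was at 0.796, 0.908 and 1.19 CPM against 1.61, 1.31 and 1.42 CPM. Its fractions did not overlap either, but it missed the threshold (log2 change 0.61 ± 0.270 SE, adjusted p = 0.146). Per kb of exon Col6a1 stood at 11.2 CPM and Col6a2 at 0.145. Col6a3, the third classical chain, had 5 counts in all, and Col6a4 and Col6a5 had 14 and 7.

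Type IV genes lie as 3 couples of head-to-head neighbours, and both members of 2 couples rose. Col4a1 and Col4a2, whose products form the common α1α1α2 network, start on opposite strands of chromosome 8 and overlap by 22 bases. Col4a1 was at 321, 314.8 and 298 CPM in SM negative and 383.6, 350.1 and 310.2 CPM in SM positive libraries. SM positive 3 fell within the SM negative range. Its log2 change was 0.16 ± 0.042 (SE; adjusted p = 0.0167). Col4a2 was at 218.4, 226.8 and 221.9 against 267.8, 253.4 and 226.9 CPM, with a gap of under 1 CPM between the nearest libraries (log2 change 0.16 ± 0.046 SE, adjusted p = 0.023). Both calls depended on the pairing and on which pairs were kept. The adjusted p was 0.378 and 0.288 without the block, and 0.0504 and 0.0838 with DESeq2. It was 0.337 and 0.401 without pair 1, and 0.0502 and 0.116 without pair 2. Without pair 3 both kept the call (0.0264 and 0.0142). The log2 changes were 0.16 and 0.17 without the block and also without pair 2. They were 0.10 and 0.09 without pair 1, and 0.21 and 0.23 without pair 3.

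Col4a5 and Col4a6, whose products form the α5α5α6 network of epithelial basement membranes, start 1308 bases apart on the X chromosome. Col4a5 (ENSMUSG00000031274.16, X, 141475385 to 141689234, plus strand) was at 105.8, 110 and 112.1 CPM in SM negative and 146.7, 127.4 and 151.7 CPM in SM positive libraries. The fractions were separate, with SM positive 2 the closest to the SM negative range. This was a log2 change of 0.38 ± 0.049 (SE; adjusted p = 4.09e-05), and without the block the adjusted p was 0.0311. Leaving out SM negative 1, 2 or 3 or SM positive 1 or 3 in the unblocked fit ended that call (0.126, 0.122, 0.104, 0.0673 and 0.111). Col4a6 was much lower, at 3.14, 3.79 and 3.60 against 4.24, 5.42 and 5.72 CPM, again without overlap. Its log2 change was 0.54 ± 0.144 (SE; adjusted p = 0.0156), and the call ended without the block (0.176), with DESeq2 (0.311) and without pair 1, 2 or 3 (0.0622, 0.059 and 0.14). Col4a3 and Col4a4, the kidney and lung chains on chromosome 1, had 18 and 32 counts in all and were not tested. Whether the type IV couples changed by different amounts was not tested.

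Of the chains that attach to fibrils, Col16a1 and Col12a1 rose. Col16a1, a fibril-associated collagen, was at 124.8, 119.8 and 133.7 CPM in SM negative and 162.3, 148.5 and 141.2 CPM in SM positive libraries. The ranges were separate (log2 change 0.26 ± 0.052 SE, adjusted p = 0.00419), but the call ended without the block (0.113), without pair 1 (0.102) and without pair 2 (0.0725). The call was kept without pair 3 (0.000634) and with DESeq2 (0.00657). Col12a1, a fibril-associated collagen of dense connective tissue, was at 2.35, 3.53 and 3.27 against 4.2, 4.86 and 4.81 CPM, also without overlap. Its log2 change was 0.62 ± 0.153 (SE, adjusted p = 0.00982). The adjusted p was 0.168 without the block, 0.25 with DESeq2, 0.132 without pair 1 and 0.063 without pair 3. Without pair 2 it was 0.0253, and the call was kept. Col20a1 and Col9a3, with 206 and 201 counts in all, were not called (adjusted p = 0.894 and 0.413).

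Col8a1, one of the most abundant chains, was at 436.2, 409.7 and 391.1 CPM in SM negative and 503, 432.6 and 438.4 CPM in SM positive libraries. The ranges overlapped, and the rise appeared within each pair, by 1.15, 1.06 and 1.12-fold (log2 change 0.15 ± 0.040 SE, adjusted p = 0.0156). That call ended without the block (0.375), without pair 1 (0.256) and without pair 3 (0.137). It was kept without pair 2 (0.00491) and with DESeq2 (0.0304). Its partner Col8a2 was at 0.517, 0.748 and 0.758 against 1.2, 1.17 and 1.17 CPM. Those ranges did not overlap, but at 123 counts in all the change missed the threshold (log2 change 0.82 ± 0.30 SE, adjusted p = 0.0735). Col18a1 was at 424.8, 404.7 and 436.6 against 474.2, 442.6 and 440.4 CPM and was not called (log2 change 0.10 ± 0.041 SE, adjusted p = 0.11). Col15a1, the other multiplexin, had 54 counts, and the transmembrane chains Col13a1, Col23a1 and Col25a1 had 1, 1 and 2.

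Col7a1 was the only member that fell. It encodes the anchoring fibril collagen that ties the epithelial basement membrane to the tissue beneath. Its level was 31.5, 32.4 and 33.0 CPM in SM negative and 26.6, 26.5 and 27.1 CPM in SM positive libraries. The fractions were separate and each was tight, with pair ratios of 0.846, 0.818 and 0.821. Its log2 change was -0.27 ± 0.056 (SE; adjusted p = 0.00257). It kept the call without pair 1, 2 or 3 (0.031, 0.0145 and 0.0363) and lost it without the block (0.0928) and with DESeq2 (0.122).

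**Figure D3:**
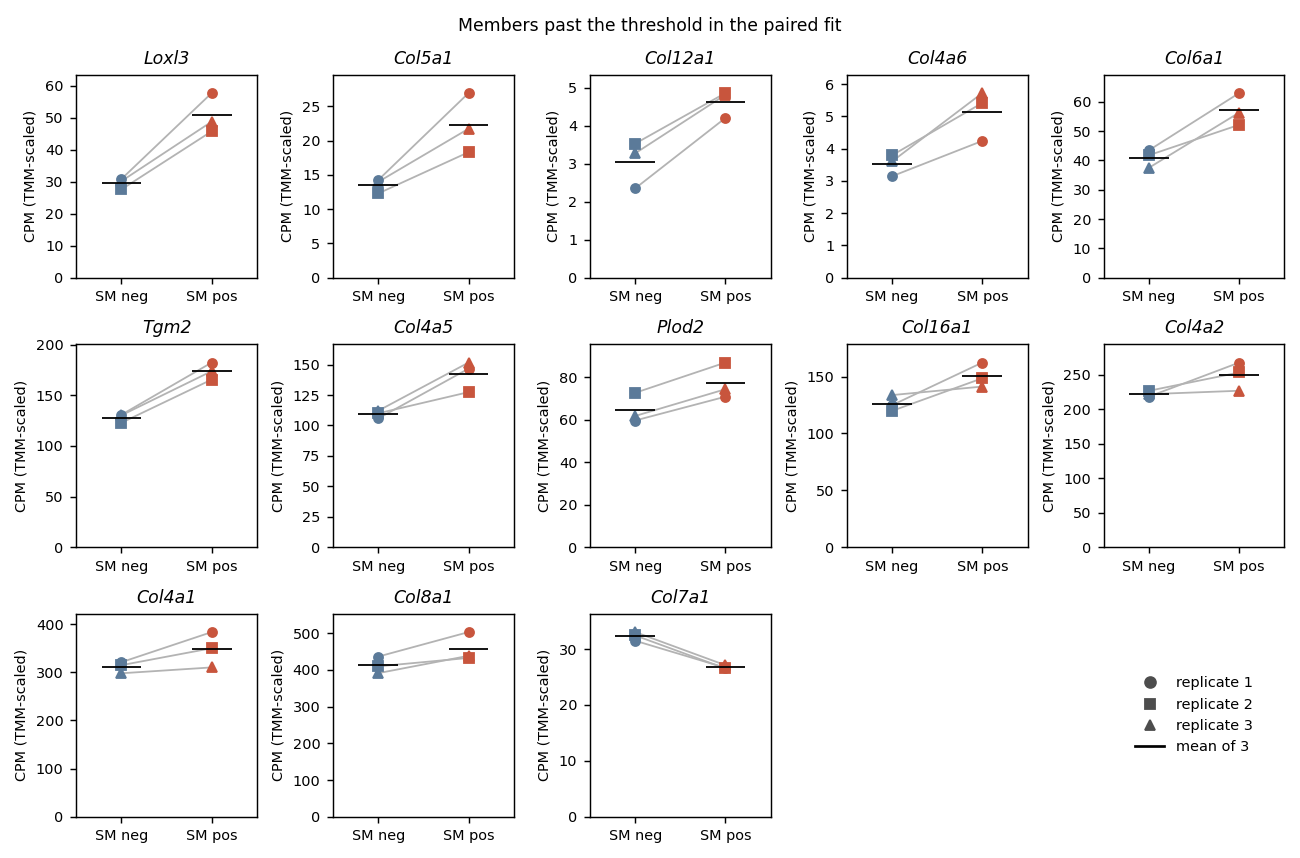
TMM-scaled CPM in each library for the 13 members past the threshold in the paired fit, with SM negative on the left, SM positive on the right, a line joining libraries with the same replicate number and a bar at the mean of 3; each vertical axis starts at 0. Every line rises except those of Col7a1, and the fractions overlap for Plod2, Col4a1 and Col8a1.

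Loxl3 had the smallest adjusted p of all members. It is a secreted copper-dependent amine oxidase of the lysyl oxidase family (ENSMUSG00000000693.10, chromosome 6, 83034173 to 83052562, plus strand). Levels were 30.8, 27.6 and 30.1 CPM in SM negative and 57.7, 45.7 and 48.7 CPM in SM positive libraries. The lowest SM positive library stood well above the highest SM negative one, and the pair ratios were 1.87, 1.66 and 1.62. The log2 change was 0.78 ± 0.055 (SE; adjusted p = 1.31e-08, and 0.00489 without the block). It stayed past the threshold in all 9 alternative fits with the block and all 7 without it, at an adjusted p of at most 0.0466. Htra2, which overlaps Loxl3 on the opposite strand, was at 59.1, 54.4 and 57.1 against 52.5, 50.7 and 47.2 CPM and was lower in SM positive cells (log2 change -0.18 ± 0.049 SE, adjusted p = 0.0158 paired, 0.252 without the block). Which strand setting the counting used is unknown, and its part in the Loxl3 value was not tested.

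The other lysyl oxidases did not pass. Loxl4, the most abundant of the family here, was at 274.4, 279.7 and 259.3 against 319.9, 275.1 and 277.4 CPM. The ranges overlapped and pair 2 went the other way (log2 change 0.10 ± 0.045 SE, adjusted p = 0.155; 0.0253 without pair 2). Loxl1 was at 0.756, 0.588 and 0.616 against 0.563, 0.607 and 0.709 CPM, with no separation (adjusted p = 0.912). Per kb of exon, Loxl4 stood at 66.7, Loxl3 at 8.71 and Loxl1 at 0.194 CPM.

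Tgm2, tissue transglutaminase, rose in all 3 pairs (ENSMUSG00000037820.15, chromosome 2, 158116402 to 158146436, minus strand). It was at 130.8, 122.9 and 130.3 CPM in SM negative and 182.4, 165.6 and 173.9 CPM in SM positive libraries. Pair ratios were close, at 1.39, 1.35 and 1.33. On the log2 scale the rise was 0.44 ± 0.041 (SE; adjusted p = 2.86e-07, and 0.0072 without the block). Over the same alternatives, 1 ended the call, the unblocked fit without SM negative 2 (0.0538). On the opposite strand, Rprd1b stood at 39.8 to 45.2 and 40.4 to 46.7 CPM and was not called, and the unnamed gene Gm20412 stood at 5.08 to 6.65 and 5.79 to 8.67 CPM and was higher in the paired fit (adjusted p = 0.0257, and 0.337 without the block). How far antisense reads contribute to the Tgm2 count was not tested.

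Among the lysyl hydroxylases, Plod2 rose and the other two were not called. Plod2 hydroxylates the telopeptide lysines from which stable pyridinoline crosslinks form. It was at 59.6, 72.7 and 61.8 CPM in SM negative and 70.8, 86.9 and 74.4 CPM in SM positive libraries. Library 2 was the highest in both fractions, so the ranges overlapped, while the pair ratios were nearly equal at 1.19, 1.2 and 1.2. The log2 change was 0.26 ± 0.043 (SE; adjusted p = 0.000347). All 9 alternative fits with the block kept the call, and the fit without it did not (adjusted p = 0.261). Plod1 was at 15.1, 15 and 14.7 against 17.1, 16.8 and 14.6 CPM (log2 change 0.12 ± 0.076 SE, adjusted p = 0.345). Plod3, which also glycosylates hydroxylysine, was at 70.4, 65.4 and 69.1 against 67.9, 68.1 and 63.4 CPM (log2 change -0.04 ± 0.046 SE, adjusted p = 0.635).

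Serpinh1, the most abundant member per kb of exon, was at 522.3, 462 and 464.2 CPM in SM negative and 525.3, 445.1 and 431.6 CPM in SM positive libraries. Library 1 was the highest in both fractions and the ranges overlapped. Its log2 change was -0.05 ± 0.040 (SE; adjusted p = 0.464), while 9 collagen chains rose in the same libraries.

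**Figure D4:**
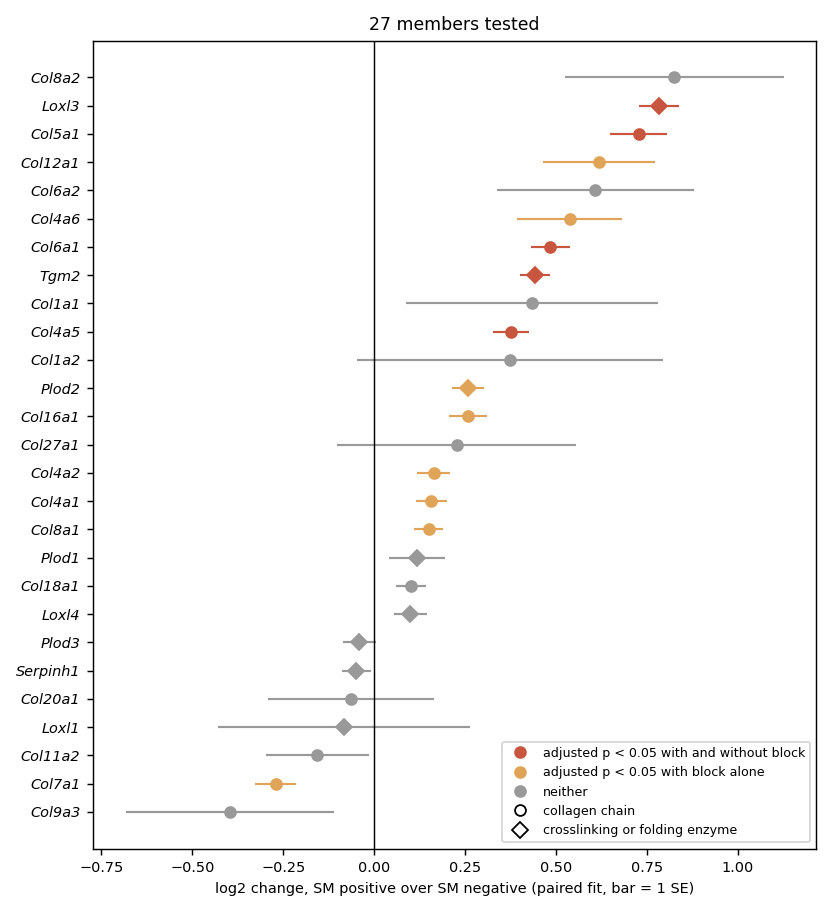
Log2 change from SM negative to SM positive in the paired fit for the 27 tested members, with bars of 1 SE; colour shows whether the adjusted p was under 0.05 with and without the block, with the block alone, or in neither. Loxl3, Col5a1, Col6a1, Tgm2 and Col4a5 pass both ways, Col7a1 is the only called member left of 0, and the members of low count such as Col8a2 (0.82 ± 0.30) have wide bars.

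Genes that mature collagen outside this group were looked at as a list of 30, of which 20 were tested. In the paired fit 5 were higher and 1 was lower, against 8.52% and 5.60% of all genes tested, with a median log2 change of 0.09. P4ha1, a catalytic subunit of prolyl 4-hydroxylase, was at 131.9, 157.8 and 122.5 CPM in SM negative and 155.4, 188.4 and 143.0 CPM in SM positive libraries (log2 change 0.24 ± 0.040 SE, adjusted p = 0.000382). As with Plod2, library 2 was the highest in both fractions. Pcolce, which enhances removal of the procollagen C-propeptide, rose 1.13-fold (adjusted p = 0.00597), and P3h3, of the prolyl 3-hydroxylase family, 1.19-fold (0.0101). P4ha2, another prolyl 4-hydroxylase subunit, rose 1.32-fold (0.0108). Pcolce2, a relative of Pcolce, was 1.18-fold lower (0.00323). P4hb and the propeptide protease gene Bmp1 stood at 629.3 to 789.7 and 260.4 to 267.2 CPM over the 6 libraries and were not called.

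Receptors and turnover genes formed a list of 20, of which 12 were tested. In the paired fit 3 were higher and 2 lower, against the same 8.52% and 5.60%, and the median log2 change was 0.10. Mrc2, the collagen uptake receptor Endo180, was at 2.79, 2.72 and 2.75 CPM in SM negative and 4.69, 4.34 and 4.26 CPM in SM positive libraries, with no overlap (log2 change 0.69 ± 0.154 SE, adjusted p = 0.00466 paired, 0.052 without the block). Timp2, a metalloprotease inhibitor, rose 1.14-fold (adjusted p = 0.00227) and Mmp14, a membrane-bound collagenase, 1.09-fold (0.0387). Itga2, the α2 subunit of a collagen-binding integrin, was at 103.9, 86.0 and 79.9 against 81.8, 62.9 and 68.0 CPM, and it fell within each pair (log2 change -0.34 ± 0.046 SE, adjusted p = 3.53e-05). The gelatinase gene Mmp9 was 1.12-fold lower (0.0446). Without the block no gene of either list passed the edgeR test; at an unadjusted p under 0.05 that fit had 5 higher and none lower in the maturation list, and 3 higher and 2 lower in the receptor list, against 8.04% and 5.58% of all genes tested. Without pair 1 the paired fit had 2 higher and none lower in the maturation list, and none higher and 2 lower in the receptor list. Over all 14017 genes tested in that fit, 506 were higher and 199 lower.

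Few short stretches of these genes recur elsewhere. Over the 27 tested members, the share of 31-base stretches that also occur in another gene was at most 1.5% (Plod3), and it was 0 for Loxl3, Tgm2, Col6a1 and Col4a5 and 0.318% for Col5a1. Transcripts were compared as written, without the reverse complement. Sequence shared with overlapping genes on the opposite strand, such as Htra2 at Loxl3 or Rprd1b at Tgm2, was therefore not counted.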

How the data were processed

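PolyA RNA of 6 sorted libraries was sequenced after a stranded library preparation, per the labels' protocols. The values the authors deposited are estimated counts per gene, not normalized and partly not whole. The submitters' processing notes name FastQC 0.11.5, STAR 2.6.0a, RSEM 1.3.1 and GRCm38, without roles; annotation release and strand setting: not given in the sources used here. Symbols, 1-based coordinates and merged exon lengths came from GENCODE M21 (99.8% of 53465 identifiers matched).

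Counts were rounded, filtered with filterByExpr (14038 genes left), scaled by TMM and tested with edgeR 4.0.16 in R 4.3.3 (robust quasi-likelihood F test, replicate number as a block, Benjamini-Hochberg over all genes, threshold 0.05). An adjusted p given without a tool is from edgeR. SE is the log2 change over the square root of F. On simulated data with known log2 changes of 0.5 and 1 in size, the paired fit recovered 49.5% and 87.2% of changed genes. The fit without the block recovered 21.4% and 78.7%. False calls numbered 20 with the block, above the nominal share, and 1 without it.

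The rule for this gene group asks for the block. Deviations from fraction means correlated at 0.22, 0.28 and 0.196 between libraries of the same number and at -0.175 to -0.0435 between others. Centring on fraction means tends to make the latter negative when the former are positive, so the latter are no separate sign of pairing. The numbers were taken as pairs. No library repeated another (chi-square per gene 6.38 to 18.2).

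Members and lists were chosen with earlier results of these data known. Full values are given for called members, the 5 chains highest per kb, tested enzymes and partner chains; other lists give up to 4 genes in each direction past 1 CPM, and cell type lists the 2 highest. Further genes of those lists were named after their values were seen. Alternatives were no block, RLE factors, library totals, other filters, DESeq2 1.42.0, limma-voom (limma 3.58.1), a threshold of 0.01, and leaving out pairs or libraries.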

Additional observations from a re-analysis of the deposited data

How the results depend on the processing

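With the block, RLE factors, library totals, limma-voom, no filter and a minimum above 1 CPM in 3 libraries kept all 13 member calls. DESeq2 kept 8, 8 higher and 0 lower, and gave 8 members no adjusted p. A threshold of 0.01 kept 9. Without the replicate block 5 members were higher and 0 lower. None of the 13 members called in the paired fit changed sign in any alternative. The uncalled Col20a1, Col27a1, Loxl1, Plod3 and Serpinh1 did so when 1 pair or library was left out, without passing the threshold. Alternatives with the block gave 231 values, 117 of them for the 13 called members, and 18 of those 117 lost the call. Among the uncalled members 1 call was gained, Loxl4 without pair 2. Alternatives without the block gave 189 values, 91 of them for the 13 called members, and 71 of those 91 lost the call. Leaving out pairs or, without the block, single libraries gave 1 to 9 members higher and 0 to 1 lower. The maturation list then had 0 to 5 higher and 0 to 1 lower, and the receptor and turnover list 0 to 3 higher and 0 to 2 lower. For the maturation list, no block gave 0 higher and 0 lower, DESeq2 1 and 0, no filter 2 lower, and the threshold of 0.01 2 higher. For the receptor and turnover list, no block gave 0 and 0, DESeq2 1 and 1, and library totals, limma-voom and the threshold of 0.01 each 1 lower. The causes were not tested. Over all genes 1982 passed with the block, 190 without it, 616 with DESeq2 and 939 at 0.01; without pair 1, 2 or 3 it was 705, 1793 and 886, and 25 to 123 in unblocked fits without 1 library. The summed collagen ratio was 1.13, and that of the enzymes and chaperone 1.08. Under either other scaling both moved by less than the spread between pairs. At the depth of these libraries 31 members were under 1 CPM, and 8 of them had no count. Whether depth set these values was not tested.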
